A study of Mus musculus with 6 samples.

Results

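Top2a, Ccnb1 and Cdk1 encode proteins that cells make to enter and carry out mitosis. They were chosen by name and are 3 of the 570 rows of the authors' deposited table, and all 3 were found. The study concerns osteoclasts, the multinucleated cells that resorb bone, which M-CSF and RANKL, the cytokines that drive their differentiation, induced from primary cells of wildtype C57BL/6 mice. Its 6 samples, all of day 3, are 3 controls and 3 cultures that also received interferon-gamma. Both groups share the strain, the genotype and the RANKL and M-CSF. No label ties the samples of a group to different mice or dishes, so the spread between them may be technical. Columns named CTRL1 to CTRL3 match the titles of the controls but not their library names, which the labels give as BLANK1 to BLANK3, so every value below rests on the match by title. The other 3 columns are named FKD with a number, a name that none of the sample labels carries, and they were not used. The columns of the interferon-gamma group therefore number 0, the comparison the study was designed for was not made here, and no gene is reported as changed.

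Entry into mitosis is driven by a kinase complex of Cdk1, the catalytic subunit, and a B-type cyclin such as Ccnb1, which accumulates before mitosis and is destroyed as it ends. Top2a, DNA topoisomerase II alpha, untangles and helps condense the chromosomes so that they can separate. Osteoclasts form by fusion of mononuclear precursors, and these precursors proliferate in response to M-CSF. Transcripts of mitotic genes are generally used to follow the dividing cells of a culture. Transcription of such genes is known to peak in G2 and mitosis through promoters that combine CCAAT boxes, bound by the factor NF-Y, with a cell cycle genes homology region (CHR), bound by the DREAM and MYB-MuvB complexes.

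The 250 bases before each start site are shown because they are a feature the 3 genes can be compared on that does not come from the expression table. Sequences are from RefSeq on build GRCm38, another build than the mouse build in the submitters' processing notes, and are written 5′ to 3′ on the strand of the gene, which is the minus strand in each case. Capitals mark matches on either strand to the CCAAT box and to 4 forms of the CHR. On the opposite strand the CCAAT box reads ATTGG. The most common form of the CHR is spelled TTTGAA. Its copy on the opposite strand reads TTCAAA. The first variant searched was spelled TTCGAA and is the same on both strands. So is the second variant, which was spelled TTTAAA in the search. The last variant searched was CTTGAA, and it was in 0 of the 3 windows. No marked match overlaps another. The windows are chr11:99024190-99024439 for Top2a, chr13:100786487-100786736 for Ccnb1 and chr10:69352913-69353162 for Cdk1.
Top2a: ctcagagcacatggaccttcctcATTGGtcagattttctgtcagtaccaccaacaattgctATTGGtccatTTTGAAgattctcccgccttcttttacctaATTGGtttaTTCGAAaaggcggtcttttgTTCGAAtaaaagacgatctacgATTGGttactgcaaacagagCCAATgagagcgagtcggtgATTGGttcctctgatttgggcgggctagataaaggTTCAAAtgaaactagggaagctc
Ccnb1: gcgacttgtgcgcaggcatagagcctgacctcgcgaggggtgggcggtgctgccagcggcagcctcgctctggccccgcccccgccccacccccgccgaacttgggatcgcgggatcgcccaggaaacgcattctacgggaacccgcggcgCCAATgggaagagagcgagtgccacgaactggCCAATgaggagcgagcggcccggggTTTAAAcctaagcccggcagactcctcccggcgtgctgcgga
Cdk1: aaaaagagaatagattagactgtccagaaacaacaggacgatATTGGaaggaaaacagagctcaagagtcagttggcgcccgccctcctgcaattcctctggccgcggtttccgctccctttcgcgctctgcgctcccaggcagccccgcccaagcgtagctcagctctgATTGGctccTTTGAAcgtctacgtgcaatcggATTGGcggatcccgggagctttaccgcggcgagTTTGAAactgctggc

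Each window held more than 1 CCAAT box and at least 1 CHR form. Top2a had 6 CCAAT boxes, from 227 to 58 bases before the start, with 2 copies of TTTGAA and 2 of TTCGAA. Ccnb1 had 2 CCAAT boxes, which began 99 and 67 bases before the start, and 1 TTTAAA beginning at 42. Cdk1 had 3 CCAAT boxes, beginning at 208, 80 and 48, and 2 copies of TTTGAA, at 71 and 15. The windows differed in base composition, with a GC content of 43.6% for Top2a, 69.6% for Ccnb1 and 56.4% for Cdk1. Among all 32851 windows of the same length, 10.1% held at least 2 CCAAT boxes, 34.0% at least 1 CHR form and 3.28% both. Both were present in 5.59% of the 465 windows that belong to genes of the table. The windows of Top2a, Ccnb1 and Cdk1 are themselves counted in these shares. A match of letters is a description of the window and does not show that a factor binds there.

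In the control columns the 3 genes had moderate values that differed little between libraries. Values are the authors' normalised expression, in a unit that neither the table nor the labels name. Top2a stood at 7.30, 7.16 and 7.55 in controls 1, 2 and 3, a mean of 7.34 ± 0.198 (SD, n = 3). Ccnb1 stood at 6.07, 6.11 and 5.82 in the same order, a mean of 6.00 ± 0.154 (SD, n = 3). Cdk1 stood at 3.33, 3.29 and 3.31, a mean of 3.31 ± 0.0181 (SD, n = 3). The highest library exceeded the lowest by a ratio of 1.05 for Top2a and for Ccnb1 and of 1.01 for Cdk1. Control 3 was the highest library for Top2a and the lowest for Ccnb1, and control 1 was the highest for Cdk1. Control 2 was the lowest for both Top2a and Cdk1 but the highest for Ccnb1. No library was thus the highest or the lowest for all 3. In bulk RNA such values cannot tell the number of dividing cells from the amount of the transcript in each of them.

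**Figure D1:**
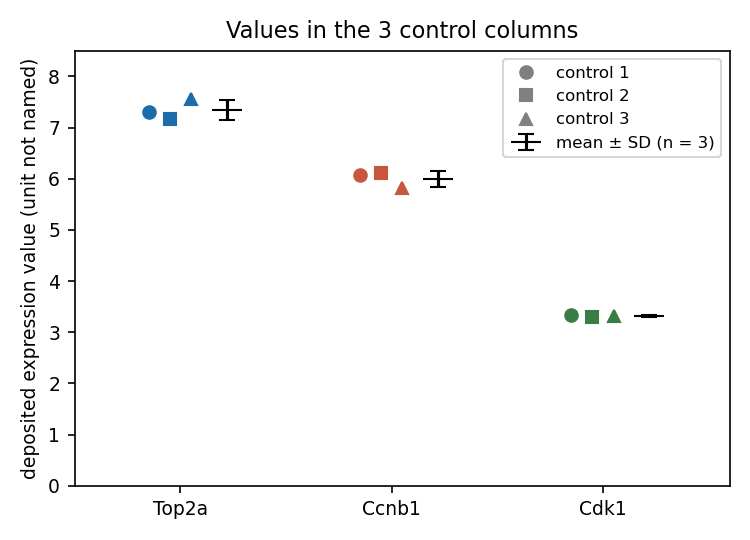
Deposited expression value (vertical axis, unit not named, starting at 0) of Top2a, Ccnb1 and Cdk1 in control 1 (circle), control 2 (square) and control 3 (triangle), with the mean and SD (n = 3) in black beside them. The values of the 3 genes do not overlap, with Top2a near 7.34, Ccnb1 near 6.00 and Cdk1 near 3.31.

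The order of the values was Top2a, then Ccnb1, then Cdk1 in each of the 3 libraries. The ratio of Top2a to Ccnb1 was 1.20, 1.17 and 1.30 in controls 1, 2 and 3, and that of Ccnb1 to Cdk1 was 1.82, 1.86 and 1.76. On the scale of log2(value + 1), Top2a lay above Ccnb1 by 0.25 ± 0.07 and Ccnb1 above Cdk1 by 0.70 ± 0.03 (SD of the difference within a library, n = 3). The lowest Top2a value was 1.05 above the highest Ccnb1 value, and the lowest Ccnb1 value 2.50 above the highest Cdk1 value, so neighbours in this order were farther apart than their spread. Neither the labels nor the header say whether values are per transcript length, and the order of the upper pair depends on it. The longest RefSeq-matched transcripts in GENCODE M21 have 5221, 2489 and 4375 bases for Top2a, Ccnb1 and Cdk1. With these, values not yet divided by length would come to 1.41 ± 0.0379, 2.41 ± 0.0619 and 0.757 ± 0.00414 per kilobase (SD, n = 3). That places Ccnb1 first. Other transcripts of the 3 genes were not tried.

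Reads of Ccnb1 may also be shared with close copies. Its transcript aligned at 95% identity or more, over at least 200 bases, to transcripts of 4 other annotated genes. The longest of these alignments were to Gm12856, over 1294 bases at 98.1% identity, to Gm8416, over 1290 bases at 97.3%, and to the pseudogene Ccnb1-ps, over 1287 bases at 99.2%. How the authors assigned reads from such copies is not stated, so the level of Ccnb1 is uncertain to that extent. The same search found 0 such genes for Top2a and 0 for Cdk1.

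Across the 3 control libraries the genes did not move together in the values as deposited, and under a rescaling given below they lay on one side in 1 library. Relative to its own mean, Top2a deviated by -0.471%, -2.43% and 2.90% in controls 1, 2 and 3. Ccnb1 deviated by 1.13%, 1.81% and -2.94%, so it lay on the opposite side from Top2a in every library. Cdk1 deviated by 0.488%, -0.592% and 0.105%, on the side of Top2a in 2 libraries and of Ccnb1 in 1. The libraries in which all 3 lay on one side numbered 0 of 3. These deviations are about as small as the scaling between the columns. The sums of the columns over the table ranged from 13318 to 13620, and dividing by them put Cdk1 on the side of Ccnb1 in 2 libraries. Dividing each column by its median ratio to the row means instead put all 3 genes above their means in control 1, with Top2a at 1.06%, Ccnb1 at 2.65% and Cdk1 at 2.01%. No deviation of the 3 genes exceeded 4.30% under any of these scalings. With 3 libraries of a single group, no correlation between the genes can be given.

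**Figure D2:**
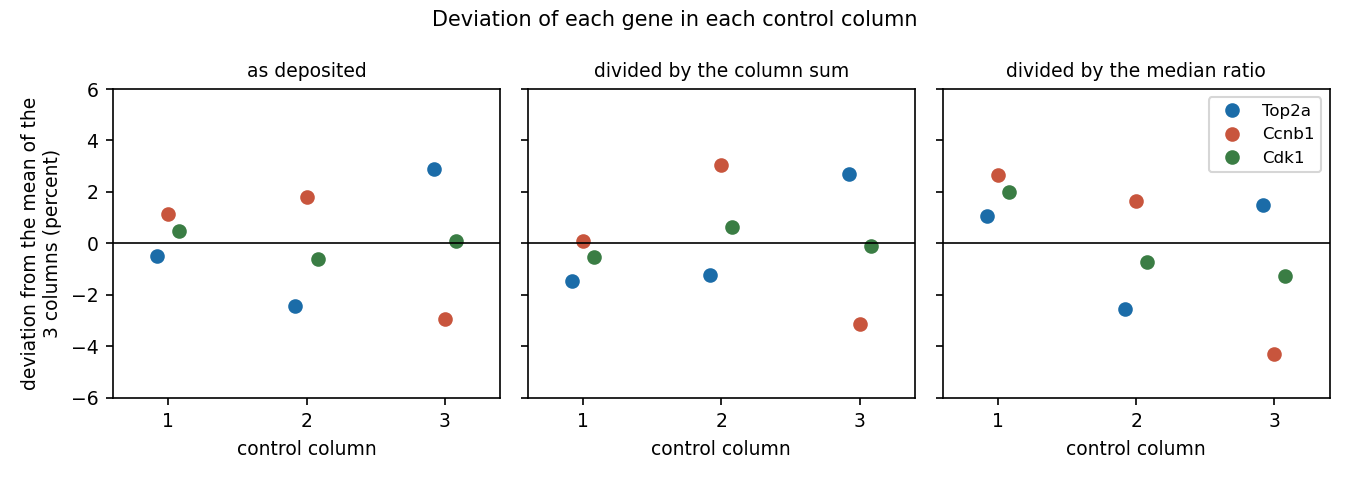
Deviation of Top2a, Ccnb1 and Cdk1 from the gene's own mean over the 3 control columns (vertical axis, percent) in each column (horizontal axis), with values as deposited (left), divided by the column sum (middle) and divided by the median ratio (right). As deposited, Top2a and Ccnb1 lie on opposite sides of 0 in every column, and after division by the median ratio all 3 lie above 0 in control 1.

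The 3 genes lay above the median of all 570 rows by level and in the lower part by spread. By mean, 98 rows lay above Top2a, 117 above Ccnb1 and 165 above Cdk1, and the median of all row means was 1.18. Among only the rows whose mean reached 1, on which the spread is ranked below, 67.9% lay below Top2a, 61.6% below Ccnb1 and 45.9% below Cdk1, so Cdk1 was then under the middle. The coefficient of variation, the SD as a percentage of the mean, was 2.69% for Top2a, 2.57% for Ccnb1 and 0.548% for Cdk1. Its median was 7.63% over the 306 rows whose mean reached 1 and 9.01% over the 248 rows with a mean from 1 to 20. Of those 306 rows, 42 had a lower coefficient of variation than Top2a, 33 a lower one than Ccnb1 and 0 a lower one than Cdk1. The next lowest value was 0.605%, of Gabrp, which encodes a GABA receptor subunit and was picked by this ranking after its values were seen. An SD from 3 values is loosely determined, and rows entered the table by a rule that is not given and may favour genes of small spread. The coefficient of variation of Cdk1 also depends on the authors' scaling. It was 0.586% after division by the column sum and 1.76% after division by the median ratio. The rows were not ranked again after these rescalings, so whether Cdk1 would keep its place was not tested.

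**Figure D3:**
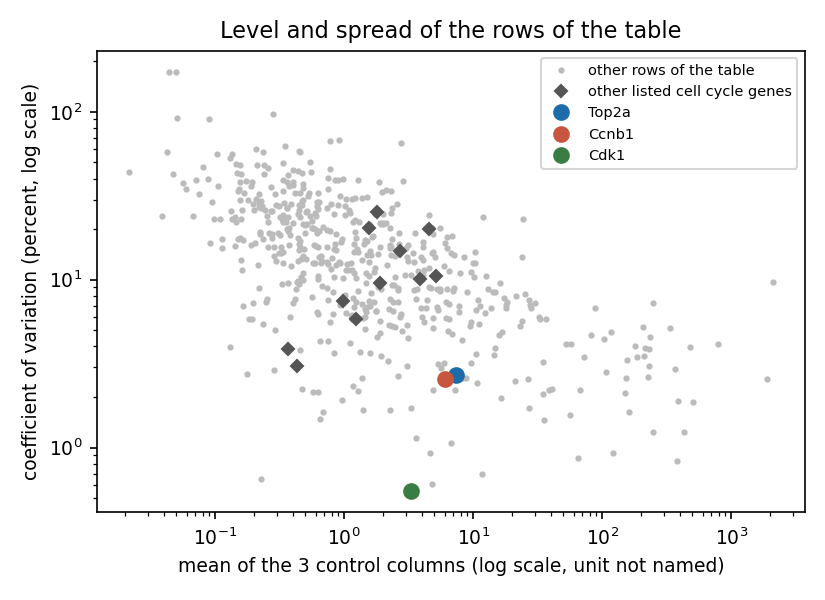
Coefficient of variation over the 3 control columns (vertical axis, percent, log scale) against the mean of the 3 columns (horizontal axis, unit not named, log scale) for the rows of the table, with Top2a, Ccnb1 and Cdk1 in colour and the other 11 listed cell cycle genes as dark diamonds. Top2a and Ccnb1 lie close together near 2.6% to 2.7%, and Cdk1, at 0.548%, is the lowest point.

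Other genes of mitosis were present beside them. Of 147 symbols on 6 lists of cell cycle genes, 14 were in the table (9.52%). For scale, the whole table has 570 rows, and the RefSeq promoter windows cover 27025 genes. How many genes were considered for the table is not stated, so an exact share over all genes cannot be given. All 14 came from 2 of the lists. Of the list for chromosome structure, spindle and cytokinesis, 12 of 40 were present, including Top2a, and of the list of mitotic kinases, cyclins and their regulators 2 of 20, which are Ccnb1 and Cdk1. The lists for DNA replication and S phase (40 symbols), G1 cyclins, kinases and inhibitors (15), mitotic exit (12) and cell cycle transcription factors with proliferation markers (20) had 0 members among the rows. The table is a selection, presented by its name as differentially expressed genes, and says nothing of the level of genes it leaves out. The 14 include Top2a, Ccnb1 and Cdk1 themselves, and the lists were chosen with earlier results of these data known. The uneven presence of the lists was not tested and is only a description.

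The other 11 genes had lower values than Top2a and Ccnb1 by mean, from 5.12 down to 0.368, with a median of 1.80. The comparison of levels between genes carries the same limit on length as above. Closest in level were Ckap2, a spindle-associated protein, at 5.12 ± 0.540, Spc25, a subunit of the NDC80 kinetochore complex, at 4.52 ± 0.902, and Nusap1, a microtubule-binding spindle protein, at 3.88 ± 0.391 (SD, n = 3). These 3 lay between Ccnb1 and Cdk1. Nuf2, another NDC80 subunit, was at 2.73 ± 0.402, Cep55, which acts in the final cut between daughter cells, at 1.90 ± 0.182, and the mitotic kinesin Kif20a at 1.80 ± 0.454 (SD, n = 3). Ncapg, a condensin subunit, stood at 1.56 ± 0.318, the chromosome-bound kinesin Kif4 at 1.24 ± 0.0721 and Kif20b, a motor related to Kif20a, at 0.987 ± 0.0738 (SD, n = 3). The lowest were Cenpf, a large kinetochore protein, at 0.428 ± 0.0130, and Aspm, which organises spindle poles, at 0.368 ± 0.0142 (SD, n = 3).

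These genes also varied without a common direction. Of the 14, 4 were highest in control 1, 5 in control 2 and 5 in control 3. Spc25, Ckap2, Cep55 and Nusap1 shared with Top2a the highest value in control 3, whereas Kif20a, Kif4, Cenpf, Nuf2 and Aspm shared with Ccnb1 the lowest value there. Spc25 stood at 3.84, 4.16 and 5.54 in controls 1, 2 and 3, and Kif20a at 1.96, 2.15 and 1.28. Control 3 was thus highest for one and lowest for the other by margins wider than those of Top2a or Ccnb1. The coefficients of variation of the 11 ran from 3.05% to 25.3% with a median of 10.1%, and each was above those of Top2a, Ccnb1 and Cdk1.

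**Figure D4:**
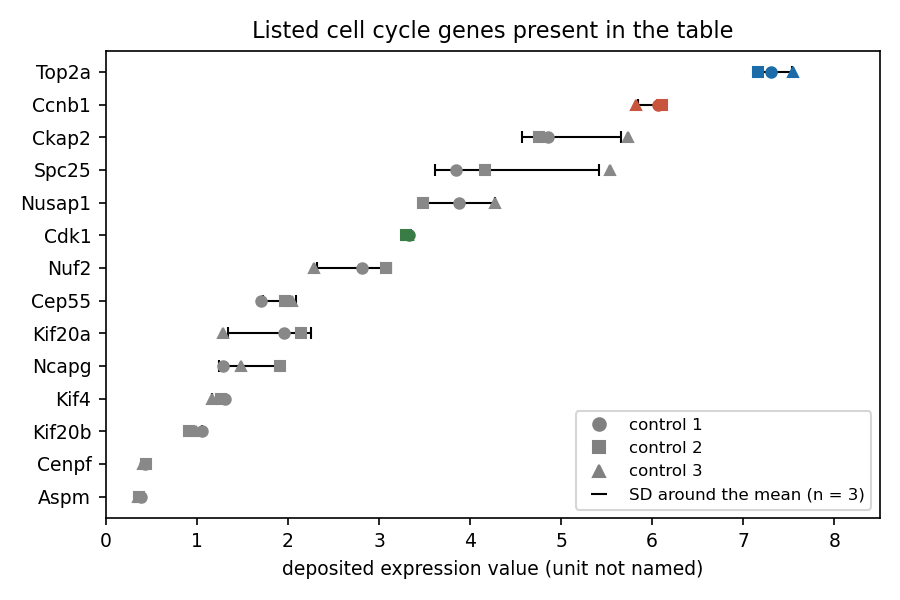
Deposited expression value (horizontal axis, unit not named, starting at 0) of the 14 listed cell cycle genes in the table in control 1 (circle), control 2 (square) and control 3 (triangle), with a bar for the SD around the mean (n = 3), and Top2a, Ccnb1 and Cdk1 in colour. Ckap2, Spc25 and Nusap1 lie between Ccnb1 and Cdk1, and the bars of Top2a, Ccnb1 and Cdk1 are short beside theirs.

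Of these 11 genes, 10 had a promoter window in the RefSeq table, the exception being Kif20a. At least 2 CCAAT boxes were found in 4 of the 10, which are Aspm, Cenpf, Kif4 and Spc25. A CHR form was found for 6 of the 10, which are Aspm, Cenpf, Cep55, Ckap2, Kif20b and Ncapg. The 10 genes have 11 windows, and Cep55 had a CHR form in only 1 of its windows. Both features together, as in the windows of Top2a, Ccnb1 and Cdk1, were found for Aspm and Cenpf. Over all 32851 windows the shares were 10.1% for at least 2 CCAAT boxes, 34.0% for a CHR form and 3.28% for both. The counts for these 10 genes were not tested against those shares.

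The rows most like each gene were taken as those with the smallest root-mean-square difference of log2(value + 1) over the 3 control columns, a measure set mostly by level. For Top2a these were Olfm4, an epithelial secreted glycoprotein, with a difference of 0.04 and a mean of 7.27, followed by Mup4, Bpifa1, Prl2c3 and Mybpc1. For Ccnb1 they were Coq8a, a mitochondrial protein of coenzyme Q synthesis, with a difference of 0.04 and a mean of 5.89, followed by Klhl41, Eef1a2, Dpp4 and Atf3. For Cdk1 they were Slc1a5, a glutamine transporter, with a difference of 0.02 and a mean of 3.30, followed by Hp, Actn2, Atp1b1 and Crat. Of these 15 rows, 0 were on the cell cycle lists, which hold only 14 of the 570 rows, so this count says nothing particular about the 3 genes.

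That these columns come from osteoclasts is known only from the labels of the samples they were matched to by title. Of 16 osteoclast markers, 1 was in the table, Car2, the carbonic anhydrase that supplies acid for resorption, at 10.9 ± 0.829 (SD, n = 3), and of 8 macrophage markers 0. Of 10 skeletal muscle markers, 9 were in the table, with summed values from 577 to 593 in the 3 libraries. Their means were 186 for Acta1, 153 for Mylpf, 150 for Mb and 56.3 for Ckm (n = 3). Myh1 was at 20.9, Des at 14.3, Myh4 at 2.28, Actn3 at 0.920 and Ttn at 0.227. The sum is over 9 genes and cannot be set against the single genes named here. The lists for squamous epithelium, T cells and for fibroblasts and osteoblasts each had 1 member present: Flg at 16.4 ± 0.323, Cd247 at 0.341 ± 0.0981 and Bglap at 36.7 ± 2.15 (SD, n = 3). The list for squamous epithelium does not cover all such genes in the table. Lce1a2, a late cornified envelope gene not on it, had a mean of 379 (n = 3) and was named after its values were seen. None of the markers present was listed at 0. The table is a selection, so a marker it leaves out may still be expressed in the cultures. These counts therefore do not measure which cells the cultures held. The part of other cells in the values of Top2a, Ccnb1 and Cdk1 was not tested.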

How the data were processed

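RNA of mouse osteoclast cultures was sequenced after poly(A) capture, per the labels' protocols. Bowtie2 2.4.4 and 2 builds, GRCh37 and GRCm39, are listed with no role in the submitters' processing notes. How expression was quantified is not stated. The authors' deposited table gives a normalised expression signal for 570 rows, with its unit and the rule for entering it not stated. Depth is therefore unknown. Columns were assigned by name, and 3 columns that match no label were left out.

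For each row the mean, SD and coefficient of variation over the 3 control columns were computed. Log2 values used a pseudocount of 1. No test was made, since a single group had values. Named genes were the 3 members, the members of 6 cell cycle lists found in the table, marker genes found in it, and the 5 nearest rows with a symbol for each member. The members and lists were chosen with earlier results of these data known. Motifs were searched in the 250 bases before each RefSeq start, on both strands. Row search and motif search were tested on simulated data. Alternatives were other pseudocounts, the median, fewer rows, leaving out each library, synonyms and, chosen after seeing the data, rescaling of columns and division by transcript length. Python 3.11.15, pandas 2.3.3 and numpy 2.4.6 were used.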

Additional observations from a re-analysis of the deposited data

How the results depend on the processing

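No paired analysis was possible because the columns used hold 0 interferon-gamma samples, so replicate numbers have values in the control group only. Each recalculated value was judged against a limit. For levels, log2 differences and shares of rows below a gene, it was the SD over the control libraries. For shares by coefficient of variation it was an exact binomial interval, which takes the rows as independent. The list count had a fold limit, and counts of libraries with all 3 genes on one side had to be equal. Some outcomes were fixed in advance. With 3 libraries, leaving out 1 cannot move a mean, or a mean log2 difference, by as much as its SD. Nor can the median lie that far from the mean. The share by coefficient of variation for Cdk1, 0 over all rows, must also be 0 among fewer rows. The number of values within the limit is therefore no measure of stability. Of 51 recalculated values, 33 stayed within the limit, the fixed ones included, 17 moved beyond it and 1 changed direction. That one was chosen after seeing the data: divided by transcript length without a pseudocount, the log2 difference of Top2a minus Ccnb1 (0.25) became -0.78, that of Ccnb1 minus Cdk1 (0.70) became 1.67 and that of Top2a minus Cdk1 (0.95) became 0.89. The difference of Ccnb1 minus Cdk1 was 0.84 with a pseudocount of 0.1 and 0.86 with none, and that of Top2a minus Cdk1 1.12 and 1.15. The share of rows below each gene, 82.8% for Top2a, 79.4% for Ccnb1 and 71.0% for Cdk1, was 67.9%, 61.6% and 45.9% among rows with a mean of at least 1. With 1 library left out it ran from 82.2% to 83.1% for Top2a and from 70.7% to 70.8% for Cdk1. The share of rows with a lower coefficient of variation was 8.61% for Top2a and 7.03% for Ccnb1 over all rows, and 13.8% and 10.8% over rows with a mean of at least 1. All 3 genes lay on one side of their means in 0 libraries as deposited and in 1 after division by the median ratio. The means of the 3 genes moved by less than the spread under each alternative run, an outcome fixed in advance with 3 libraries, as said above. The number of list members found, 14, stayed the same when synonyms were matched. Without the depth, no counting error can be attached to these values.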
